A study of Homo sapiens with 10 samples.

Results

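The genes described here encode the proteins that write, erase and remodel chromatin marks: histone lysine methyltransferases and demethylases, histone acetyltransferases and deacetylases, sirtuins, DNA methyltransferases, TET dioxygenases and the ATP-dependent remodelers. They were chosen by gene symbol alone, and no measured value entered that choice. Every region of the deposited annotated count table was taken whose assigned symbol matched set name patterns for these families. The patterns left out some family members, such as KAT5, KAT7, KAT8, SUV39H1 and KDM8, which are counted with the partner genes. The choice gave 438 of 67387 annotated regions, assigned to 94 of 15633 genes. Of these regions 231 lay within 1 kb of a transcription start and are called promoter regions, 41 lay 1 to 3 kb from a start, and 166 were distal. A promoter region was held by 88 of the genes and a distal region by 43. KMT2C and EP300 had regions at 1 to 3 kb alone, and HDAC4, CHD5, TET1 and KDM2B had distal regions alone. EHMT2, KDM4E, KDM4F, KDM5A, KDM5D, SETDB2 and SMARCB1 were not analysed here. The measurement was chromatin immunoprecipitation sequencing of H3K27ac, the acetylated form of histone H3 lysine 27, in H1975. This is a human line from a lung adenocarcinoma with mutant EGFR, so the disease is modelled here in 1 line. Each of 3 groups had 3 biological replicates, and 1 pooled input library was sequenced beside them. DMSO cells grew without drug for 21 days and then in the vehicle for 3 days. The osimertinib DTP (drug-tolerant persister) cells received 500 nM osimertinib, an EGFR kinase inhibitor, for 24 days. The osimertinib DTP + AZD5153 cells received 500 nM osimertinib for 21 days and then 150 nM AZD5153, a BET bromodomain inhibitor, for 3 days. The labels do not say whether osimertinib was kept during those last days. In such bulk chromatin, fewer cells with the mark and less of the mark per cell cannot be told apart.

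H3K27ac marks active promoters and enhancers. The acetyltransferases CREBBP and EP300 place it, and the histone deacetylases remove it. Lysine methyltransferases such as EZH2 use the same residue for a repressive methyl mark, which KDM6A and KDM6B take off. SWI/SNF, ISWI and CHD complexes slide or evict nucleosomes, and DNA methyltransferases and TET dioxygenases add and oxidise methyl groups on cytosine. Several of these enzymes, KDM5A among them, have been studied in drug-tolerant cancer cells.

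Of the genes whose summed promoter H3K27ac passed the test in a comparison with DMSO, 6 had a RefSeq promoter window over a counted region, with 7 such windows in all. A window is printed below for 5 of these genes, while the ARID1B window and a second KMT5A window are described without their letters. The windows are the 250 bases before the RefSeq start (GRCh38.p14), 5′ to 3′ on the strand of the gene, with capitals at matches on either strand to GGGCGG (the GC box of SP factors) or CCAAT (the NF-Y box).
SETD7, chr4:139556220-139556469, minus strand: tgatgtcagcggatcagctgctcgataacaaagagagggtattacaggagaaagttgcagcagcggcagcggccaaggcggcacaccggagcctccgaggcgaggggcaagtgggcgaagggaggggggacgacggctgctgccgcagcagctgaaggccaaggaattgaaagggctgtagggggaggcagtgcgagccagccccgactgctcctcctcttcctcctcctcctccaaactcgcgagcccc
DNMT1, chr19:10194954-10195203, minus strand: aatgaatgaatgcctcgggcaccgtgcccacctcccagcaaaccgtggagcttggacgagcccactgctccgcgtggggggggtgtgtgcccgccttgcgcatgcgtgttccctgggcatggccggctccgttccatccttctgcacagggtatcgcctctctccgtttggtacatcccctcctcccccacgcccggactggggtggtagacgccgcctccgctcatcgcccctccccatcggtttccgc
HDAC1, chr1:32291833-32292082, plus strand: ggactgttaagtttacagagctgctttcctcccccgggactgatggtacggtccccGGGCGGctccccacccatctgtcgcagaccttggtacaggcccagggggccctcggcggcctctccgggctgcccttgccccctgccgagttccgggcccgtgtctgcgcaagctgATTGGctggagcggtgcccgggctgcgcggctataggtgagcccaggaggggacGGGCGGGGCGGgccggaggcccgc
HDAC3, chr5:141636850-141637099, minus strand: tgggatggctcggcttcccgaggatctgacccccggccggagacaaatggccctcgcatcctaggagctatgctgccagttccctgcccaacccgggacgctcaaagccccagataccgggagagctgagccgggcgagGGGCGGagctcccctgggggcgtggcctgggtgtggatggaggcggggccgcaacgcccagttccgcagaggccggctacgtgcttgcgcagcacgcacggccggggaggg
KMT5A, chr12:123383882-123384131, plus strand: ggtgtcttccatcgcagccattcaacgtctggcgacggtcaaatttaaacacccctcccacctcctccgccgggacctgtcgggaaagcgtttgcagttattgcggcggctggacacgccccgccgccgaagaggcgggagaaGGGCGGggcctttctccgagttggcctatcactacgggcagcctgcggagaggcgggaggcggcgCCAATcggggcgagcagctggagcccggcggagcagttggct
Promoter H3K27ac rose at SETD7, which held neither motif, and at ARID1B, whose window held 4 GC boxes and no CCAAT. Of the genes whose promoters fell, DNMT1 held neither motif and the other printed windows held at least 1 GC box. The second KMT5A window (chr12:123388661-123388910) held 7 GC boxes. GC content ran from 64.0% in SETD7 to 76.0% in ARID1B (chr6:156777128-156777377), and the number of CpG pairs from 16 in SETD7 to 37 in ARID1B. RefSeq promoter entries matched 88 of the 102 gene names searched, with 143 windows. The GC box was in 60.8% of these 143 windows and in 42.6% of the 35116 windows of all genes, CCAAT in 30.1% and 32.0%, the ETS motif CCGGAAG in 9.1% and 8.5%, the E2F motifs TTTCCCGC in 2.8% and 1.4% and TTTGGCGC in 0.0% and 0.5%, the AP-1 motif TGANTCA in 4.2% and 6.6% and the TEAD motif GGAATG in 5.6% and 11.9%. All 7 motifs were searched on both strands, and a match is a description of these letters alone.

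Total counts over all 169637 counted regions ran from 6263443 to 10463351 per library, and chromatin modifier and remodeler regions took 0.473% to 0.727% of them. Replicate 3 of osimertinib DTP + AZD5153 stood apart. Its rank correlation with the other 2 libraries of its group was 0.43 and 0.35 over the counted regions, against 0.82 to 0.90 for every other pair within a group, and promoter regions took 66.7% of its annotated counts against 40.3% to 59.8% elsewhere. Distal counts of the genes described here were lowest in that library, 7521 against 11423 to 15590. Promoter regions of all 5 epithelial markers (EPCAM, CDH1, KRT8, KRT18 and KRT19) were acetylated, with medians of 22.2 to 82.2 CPM (TMM-normalised counts scaled to the same library size for all) per region over the 9 libraries. The leukocyte markers PTPRC, CD3E and LYZ had no annotated region, the fibroblast marker COL3A1 had none, and the endothelial marker PECAM1 had none at its promoter. The endothelial marker CDH5 (17.97 to 73.59 CPM per region) and the fibroblast marker COL1A1 (15.25 to 63.78) did have acetylated promoters, and their part in the results was not tested. Over all regions tested the log2 fold change had a median of 0.15 between osimertinib DTP and DMSO and 0.23 between osimertinib DTP + AZD5153 and DMSO after scaling by trimmed means of M values, and 0.06 and -0.02 by library size alone, so differences are read against these medians.

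Promoter acetylation was present across the classes in every group. A gene's promoter level is its summed promoter counts, as CPM of the counts summed over the promoters of all genes, divided by its number of promoter regions. Over the 9 libraries the median gene of the 88 had 39.3 CPM per region, against 35.7 for the 12295 genes with a promoter region. The lowest level was that of SUZ12 (10.4), a subunit of PRC2, the Polycomb complex that methylates H3K27, and the highest that of KMT2E (188), a SET domain protein of the KMT2 family. The class of acetyltransferases had a median of 19.9, the lowest of the 12 classes, led by KAT6B at 39.8. Genes with the highest promoter level of their class were EHMT1 (39.4) for H3K9 methyltransferases, EED (61.9) for PRC2, KMT5C (88.0) for the H3K36, H3K79 and H4K20 enzymes, SETD4 (75.0) for other SET domain genes, KDM6A (94.1) for demethylases and HDAC9 (108) for deacetylases. In the remaining classes they were SIRT5 (50.5) for sirtuins, DNMT1 (68.3) for DNA methylation, SMARCE1 (110.5) for SWI/SNF and ISWI and CHD3 (74.9) for CHD remodelers. The osimertinib DTP libraries lay wholly above DMSO at 19 of the 88 promoters, against 15.9% of all gene promoters, and wholly below it at 10, against 18.6% of all. Libraries of 1 group could lie far apart, as for HDAC9 in osimertinib DTP + AZD5153, where they had 132.5, 204.5 and 14.2 CPM per region.

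**Figure D1:**
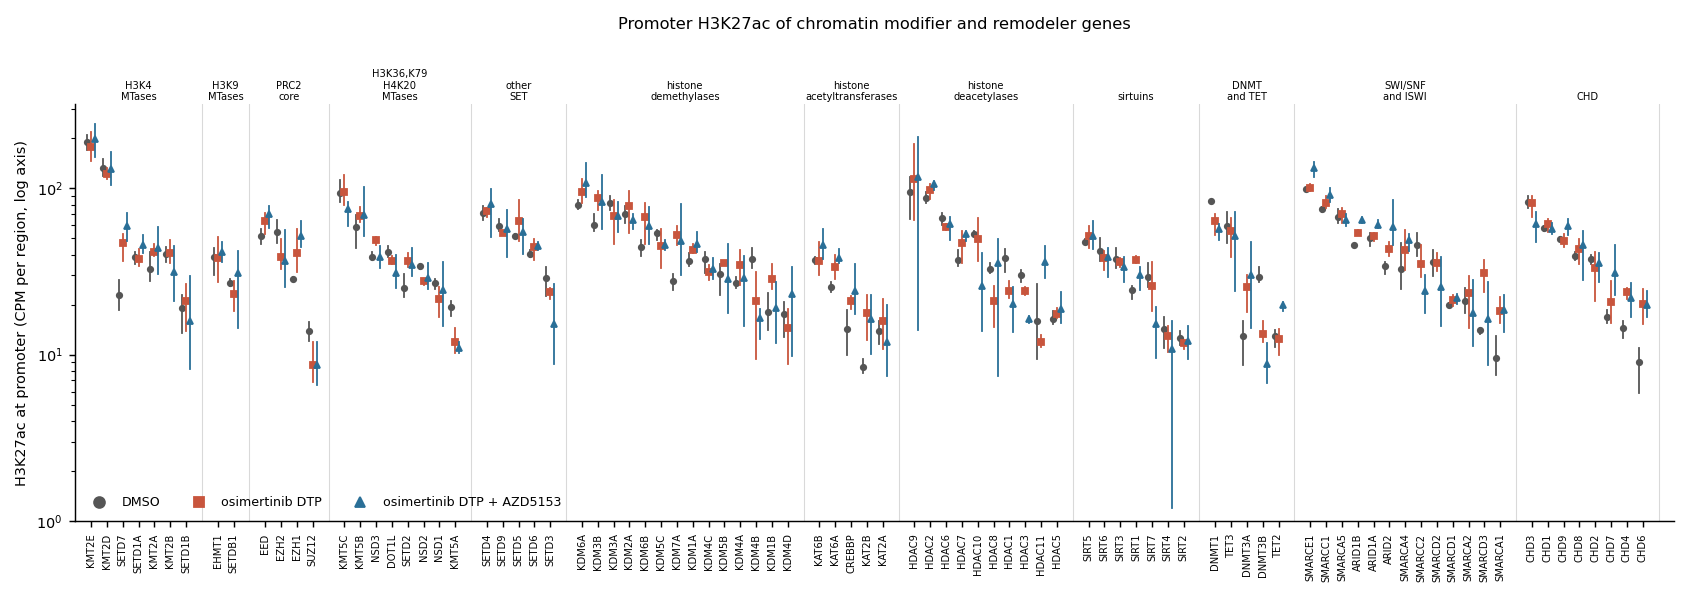
Promoter H3K27ac of the 88 genes with a promoter region, in CPM per region on a log axis, grouped by functional class and ordered by level. Symbols are group means and lines run from the lowest to the highest of 3 libraries. The osimertinib DTP and DMSO lines are apart for 19 genes with osimertinib DTP above and for 10 with it below.

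The 10 genes named whatever their values include writers and erasers of the H3K27 and H3K4 marks. KDM5A was not analysed here, and the single EP300 region (chr22:41093982-41094483) averaged 4.52, 4.22 and 3.20 CPM in DMSO, osimertinib DTP and osimertinib DTP + AZD5153. KDM5B, an H3K4 demethylase, had promoter levels of 34.3, 23.0 and 34.9 CPM per region in DMSO, 35.9, 34.9 and 35.8 in osimertinib DTP, then 21.4, 17.9 and 46.0 under osimertinib DTP + AZD5153. EZH2, the catalytic subunit of PRC2, had 47.1, 51.6 and 64.7, then 33.4, 49.6 and 32.9, then 25.7, 27.6 and 55.9 in the same order. For both genes the groups given AZD5153 and DMSO overlapped. KDM6A, which demethylates H3K27, lay between 75.0 and 85.7 in DMSO, between 81.5 and 114 in osimertinib DTP and between 88.3 and 143 in osimertinib DTP + AZD5153. KDM6B, its inducible relative, lay between 38.9 and 49.1, between 46.2 and 81.3 and between 46.3 and 77.6. CREBBP lay between 10.0 and 18.4, between 18.9 and 22.4 and between 17.7 and 35.1, and SMARCA4, an ATPase of SWI/SNF, between 24.7 and 46.8, between 32.3 and 56.4 and between 42.2 and 53.1. None of these 6 promoters passed the test in any of the 3 comparisons (edgeR, smallest adjusted p = 0.13, for CREBBP between osimertinib DTP + AZD5153 and DMSO). Without replicate 3 of osimertinib DTP + AZD5153, whose value of 55.9 was the high one of its group, EZH2 was called lower than DMSO in that group (-1.01, adjusted p = 0.0117). HDAC1 and DNMT1 are described below.

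The first comparison asked how acetylation at these genes differed between osimertinib DTP cells and DMSO cells. At promoters few differences passed the test. The promoter of SETD7, a lysine methyltransferase, rose, and that of DNMT3B, a de novo DNA methyltransferase, fell. SETD7 had 28.2, 18.6 and 22.1 CPM per region in DMSO against 52.9, 51.4 and 36.6 in osimertinib DTP. DNMT3B went from 27.5, 27.3 and 33.5 to 11.8, 15.9 and 12.3. In neither gene did the groups overlap. The log2 fold change was 1.03 ± 0.23 (SE, adjusted p = 0.030, edgeR quasi-likelihood test with Benjamini-Hochberg adjustment) for SETD7 and -1.14 ± 0.27 (adjusted p = 0.0412) for DNMT3B. Of 88 gene promoters 1 was thus called higher, against 2.80% of all gene promoters tested, and 1 lower, against 3.35%. Their median log2 fold change was 0.06, against 0.01 for all genes. With the replicate number as a block, no promoter passed (adjusted p = 0.0587 for SETD7 and 0.0721 for DNMT3B, edgeR). Promoters met the pairing rule between DMSO and osimertinib DTP but not between the treated groups. The number of calls was 1 without DMSO replicate 1, osimertinib DTP replicate 3 or osimertinib DTP + AZD5153 replicate 1, 0 without DMSO replicate 2 or 3 or osimertinib DTP replicate 1 or 2, and 10 without osimertinib DTP + AZD5153 replicate 3. Of all gene promoters 6.15% were called with every library. Without DMSO replicates 1, 2 and 3 the share was 4.51%, 0.0895% and 0.431%. Without osimertinib DTP replicates 1, 2 and 3 it was 3.69%, 3.64% and 2.17%. Without osimertinib DTP + AZD5153 replicates 1 and 3 it was 5.03% and 14.7%. CHD6, a remodeler, had promoter values of 11, 5.86 and 10.3 in DMSO and 24.8, 15.2 and 20.2 in osimertinib DTP, without overlap, and missed the threshold (adjusted p = 0.0558).

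**Figure D2:**
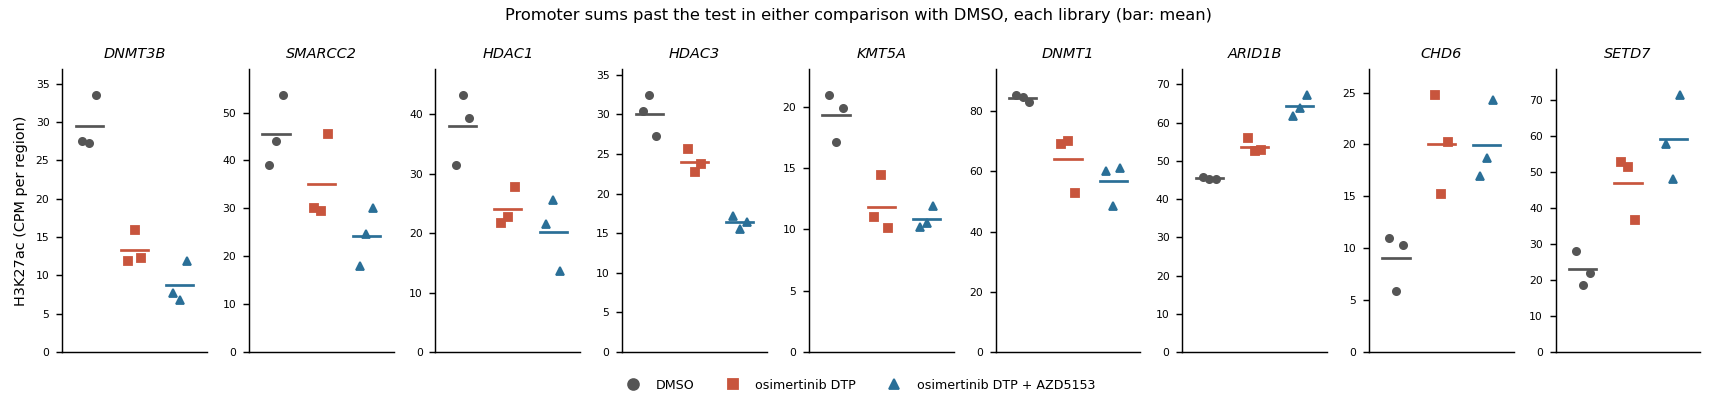
Promoter H3K27ac in each library (CPM per region, linear axes from 0) for the 9 genes whose promoter sum passed the test in a comparison with DMSO, with bars at group means. DNMT3B, SMARCC2, HDAC1, HDAC3, KMT5A and DNMT1 were lower and ARID1B, CHD6 and SETD7 higher than DMSO in osimertinib DTP + AZD5153, with no overlap of those groups.

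Distal acetylation was called different at 10 genes. Distal sums are CPM of the counts summed over the distal regions of all genes, so they are not comparable with promoter levels. Of 43 distal sums 5 were higher in osimertinib DTP (18.6% of all genes tested were) and 5 lower (15.9% of all). The median log2 fold change over the 43 was 0.29, against 0.12 over all genes.

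Among DNA methylation genes the distal regions of DNMT3B and TET3 fell and those of TET2 and DNMT1 rose. The DNMT3B region, at -8027 bases from its start (chr20:32753857-32754358), had 19.8, 18.5 and 25.4 CPM in DMSO and 6.53, 1.11 and 4.93 in osimertinib DTP (log2 fold change -2.31 ± 0.61, adjusted p = 0.0149, edgeR). TET3, a dioxygenase that oxidises 5-methylcytosine, had 12.4, 18.9 and 24.5 CPM per region over 2 regions in DMSO and 3.89, 2.41 and 5.54 in osimertinib DTP (-2.22 ± 0.52, adjusted p = 0.00864). TET2, of the same family, had 3.45, 2.06 and 1.20 at its intergenic region and 8.39, 11.1 and 10.8 in osimertinib DTP (2.15 ± 0.50, adjusted p = 0.00827). DNMT1, the maintenance methyltransferase, held 4 distal regions, with 20.9, 16.3 and 16.8 in DMSO and 36.7, 48.1 and 43.5 in osimertinib DTP (1.25 ± 0.33, adjusted p = 0.0139). The osimertinib DTP libraries were thus all below DMSO for DNMT3B and TET3 and all above it for TET2 and DNMT1.

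KDM3A, an H3K9 demethylase, and CREBBP gained distal acetylation. KDM3A had 3 intergenic regions at -43945 to -46818 bases from its start, with 3.26, 2.74 and 3.59 CPM per region in DMSO and 17.4, 15.9 and 19.8 in osimertinib DTP (2.47 ± 0.38, adjusted p = 0.00126, edgeR). CREBBP had 8.05, 7.08 and 6.36 over 4 regions in DMSO and 26.4, 25.6 and 43.7 in osimertinib DTP (2.15 ± 0.39, adjusted p = 0.00233), and 2 of its regions in its own intron 2 passed on their own. SMARCC2, a core SWI/SNF subunit, had 7.28, 6.09 and 9.37 and then 21.6, 29.9 and 35.4 (1.93 ± 0.39, adjusted p = 0.00431). In these 3 genes the lowest osimertinib DTP library was above the highest DMSO library, while their promoter sums did not pass the test.

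Distal acetylation was called lower at CHD1, HDAC8 and KDM4B. CHD1, a remodeler that reads methylated H3K4, had 16.6, 29.3 and 24.1 CPM per region over 5 regions in DMSO and 6.03, 5.55 and 8.44 in osimertinib DTP (-1.80 ± 0.49, adjusted p = 0.0162, edgeR). HDAC8, a class I deacetylase, had 47.6, 52.2 and 47.1 and then 16.5, 12.6 and 20.2 (-1.57 ± 0.51, adjusted p = 0.035), and both of its distal regions lay inside PHKA1. KDM4B, which demethylates H3K9 and H3K36, had 29.9, 23.9 and 28.9 and then 15.3, 13.8 and 13.1 over 14 regions (-0.97 ± 0.34, adjusted p = 0.0477), 10 of which lay inside PTPRS. Regions were assigned by the nearest transcription start. Of 113 regions in an intron or exon, 97 named a host gene in RefSeq, and for 23 of these the host was another gene: PTPRS for KDM4B (10 regions), LUZP1 for KDM1A (5), CUL1 for EZH2 (3), ATP5MG for KMT2A (3) and PHKA1 for HDAC8 (2). The number of distal sums called was 6 without DMSO replicate 2, 5 without DMSO replicate 3, 6 without osimertinib DTP replicate 2 and 19 without osimertinib DTP + AZD5153 replicate 3. Over all genes 34.5% of distal sums were called with every library, and 19.9%, 21.2%, 23.6% and 52.1% in these fits, in the same order. HDAC8 and KDM4B no longer passed when any 1 of the 6 DMSO and osimertinib DTP libraries was left out (highest adjusted p = 0.121 and 0.133, edgeR), or with the replicate number as a block (0.0645 and 0.0572, for distal sums that did not meet the pairing rule). CHD1 did not pass without DMSO replicate 2 or 3 or osimertinib DTP replicate 1 or 2 (highest adjusted p = 0.0718), DNMT1 without DMSO replicate 2 or 3 or osimertinib DTP replicate 2 (highest 0.0651), and DNMT3B without DMSO replicate 3 (0.054). KDM3A, CREBBP, SMARCC2, TET2 and TET3 passed whichever 1 of the 9 libraries was omitted, the highest adjusted p being 0.0484 for TET2.

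**Figure D3:**
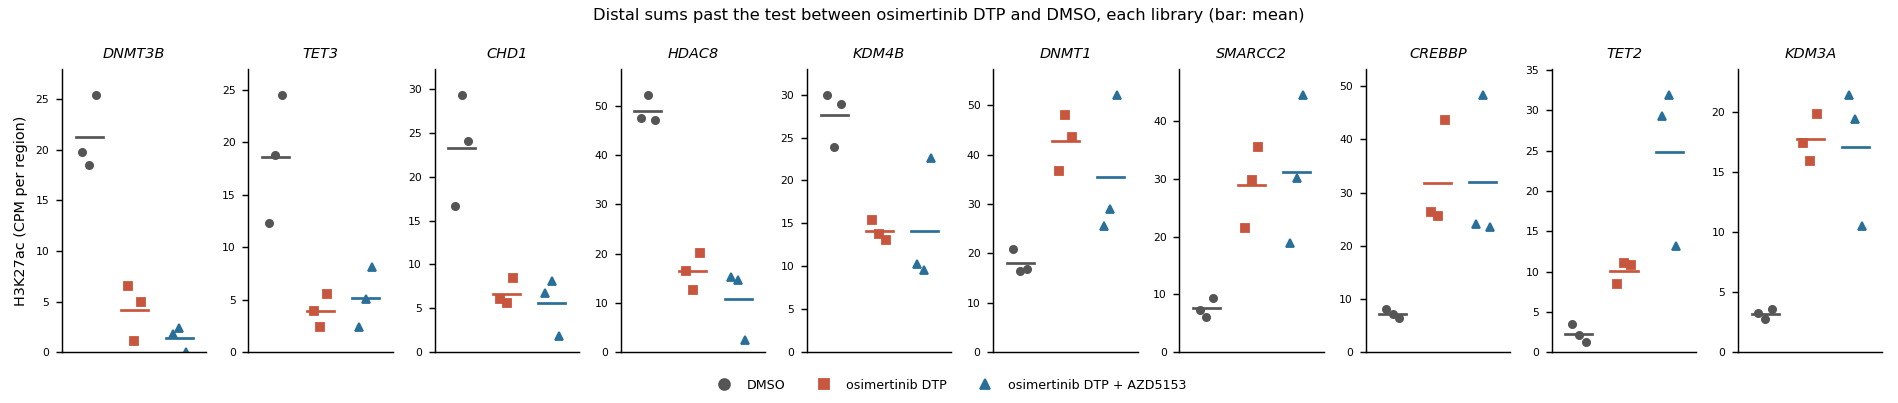
Distal H3K27ac in each library (CPM per region, linear axes from 0) for the 10 genes whose distal sum passed the test between osimertinib DTP and DMSO, with bars at group means. The 3 osimertinib DTP libraries lie below all DMSO libraries for the left 5 genes and above them for the right 5.

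Counted region by region, 43 of the 438 differed between osimertinib DTP and DMSO, in 22 genes. In all 43 the groups did not overlap, but the test on the same values had picked these regions, so this adds no support. At promoters 3 of 231 regions rose (2.78% of all promoter regions did) and 0 fell (1.85% of all). An unadjusted p under 0.05 was found for 93 of the 438, against 25.9% of all regions tested. At 1 to 3 kb 1 of 41 rose (6.90% of all) and 1 fell (7.36%). Of 166 distal regions 14 rose (9.79% of all) and 24 fell (10.8%). By DESeq2 61 regions passed, 22 higher and 39 lower, while over all 169611 regions tested 12018 were higher and 14971 lower. Demethylase genes had 7 of 36 distal regions lower and 3 higher, deacetylase genes 7 of 37 lower and 4 higher, CHD genes 7 of 24 lower and 1 higher, DNA methylation genes 2 of 10 lower and 1 higher, and other SET domain genes 1 of 10 lower and 0 higher. SWI/SNF and ISWI genes had 3 of 21 distal regions higher and 0 lower, and acetyltransferase genes 2 of 12 higher and 0 lower. No region of the sirtuin, H3K9 methyltransferase or PRC2 genes passed. Neighbouring regions of 1 gene each count in these numbers. HDAC4 held most of the lower deacetylase regions and CHD1 several of the lower CHD regions. Of the 43 called regions 6 lay inside a gene other than the assigned one.

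**Figure D4:**
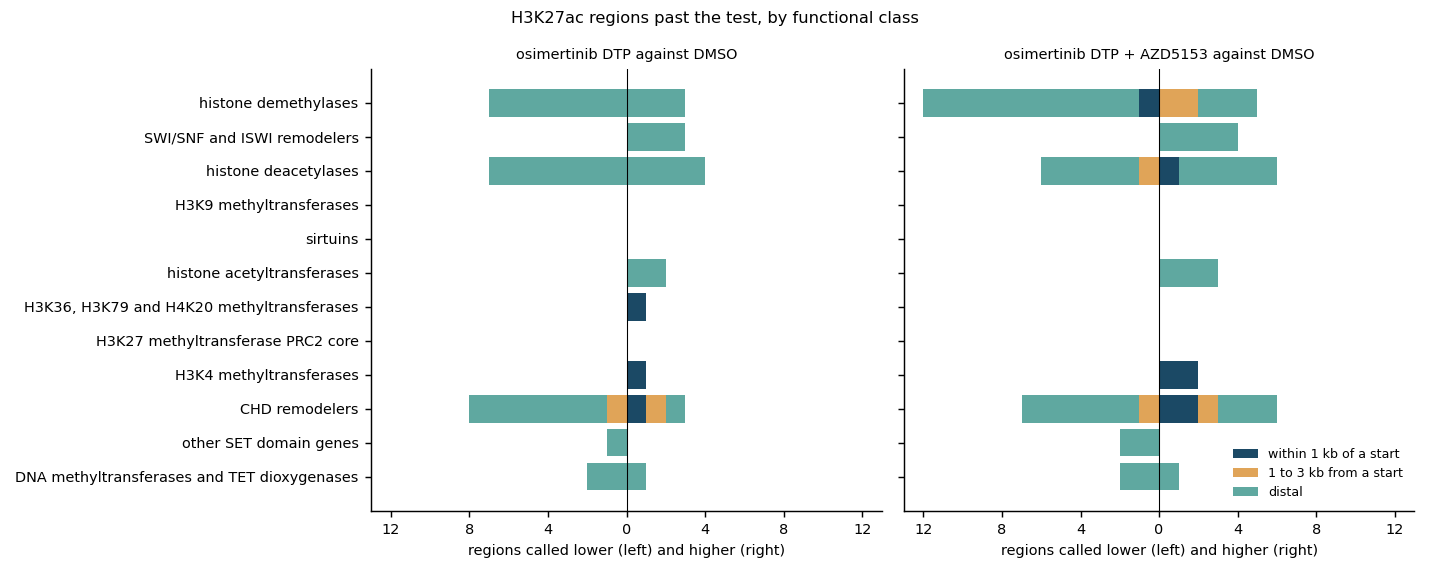
Number of H3K27ac regions past the test in each functional class, lower to the left of 0 and higher to the right, coloured by position, for both comparisons with DMSO. Distal regions make up most calls in both panels, 38 of 43 on the left and 45 of 56 on the right.

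Among the single regions with the greatest differences, CHD6 and SETD2 rose at promoters. The CHD6 promoter region (chr20:41483032-41483533) had 0.998, 0.516 and 0.503 CPM in DMSO, 8.80, 5.84 and 6.14 in osimertinib DTP, then 5.81, 7.79 and 1.55 under osimertinib DTP + AZD5153, on the scale of all regions (log2 fold change 3.33 ± 0.68 for osimertinib DTP, adjusted p = 0.00735, edgeR). Its neighbour at 1 to 3 kb (chr20:41482241-41482742) rose with it (2.89 ± 0.75, adjusted p = 0.0217). SETD2, which trimethylates H3K36, had 0.907, 0.620 and 0.704 CPM at chr3:47097362-47097863 and 5.64, 4.04 and 6.34 in osimertinib DTP (2.82 ± 0.84, adjusted p = 0.0403, and 0.0629 with the replicate block). A region in intron 4 of 12 of an HDAC9 transcript (chr7:18514560-18515061) rose as well. HDAC9 is a class IIa deacetylase, and the region had 1.45, 1.76 and 0.805 and then 6.21, 12.5 and 18.3 (3.19 ± 0.74, adjusted p = 0.0128). DMSO values at the 3 genes were near 1 CPM and the osimertinib DTP libraries stood above them without overlap. Of the 9 fits that left out 1 library, SETD2 missed the threshold in 6 (highest adjusted p = 0.17, edgeR). The CHD6 promoter region missed it in 2, its neighbour in 6 and the HDAC9 region in 5.

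HDAC4, another class IIa deacetylase, had 10 distal regions, of which 9 lay in its own introns. Of the 10, 6 were lower, 1 was higher and 3 did not pass. The region chr2:239267101-239267602 had 9.43, 15.3 and 15.6 CPM in DMSO and 2.01, 1.95 and 1.31 in osimertinib DTP (-2.93 ± 0.58, adjusted p = 0.00631, edgeR). The region chr2:239221822-239222323, named after its values were seen, went the other way, with 1.18, 0.620 and 0.805 in DMSO and 6.02, 5.29 and 3.62 in osimertinib DTP (2.50 ± 0.60, adjusted p = 0.0155). HDAC4 thus held regions of both directions, with no overlap between the groups in either, and its distal sum did not pass (-1.17 ± 0.47, adjusted p = 0.0807).

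KDM6A lost acetylation inside the gene. Its region in intron 4 and its region in exon 5 were both lower. The intron region (chrX:45006846-45007347) had 3.17, 5.89 and 4.02 CPM in DMSO and 0.574, 0.278 and 0.302 in osimertinib DTP (-3.43 ± 0.77, adjusted p = 0.0112, edgeR), and neither KDM6A promoter region passed. The greatest fall assigned to KDM4B was at chr19:5165620-5166121, inside PTPRS, with 3.72, 3.72 and 5.23 and then 0.191, 0.278 and 0.403 (-3.80 ± 0.76, adjusted p = 0.0068). CHD1 had 4 exon regions that fell. One of them, chr5:98903775-98904276 in exon 4, had 4.63, 9.09 and 6.74 and then 0.478, 0.278 and 1.11 CPM (-3.40 ± 0.68, adjusted p = 0.00686). Another, chr5:98904414-98904915 in exon 3, had 5.71, 17.7 and 9.76 and then 1.24, 0.835 and 1.21 (-3.31 ± 0.79, adjusted p = 0.0146). TET3 had 4.17, 10.3 and 7.14 and then 0.382, 0.835 and 1.41 in its intron 2 (chr2:74010427-74010928, -3.02 ± 0.66, adjusted p = 0.0102). DMSO stood above osimertinib DTP in each of these regions with no overlap.

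**Figure D5:**
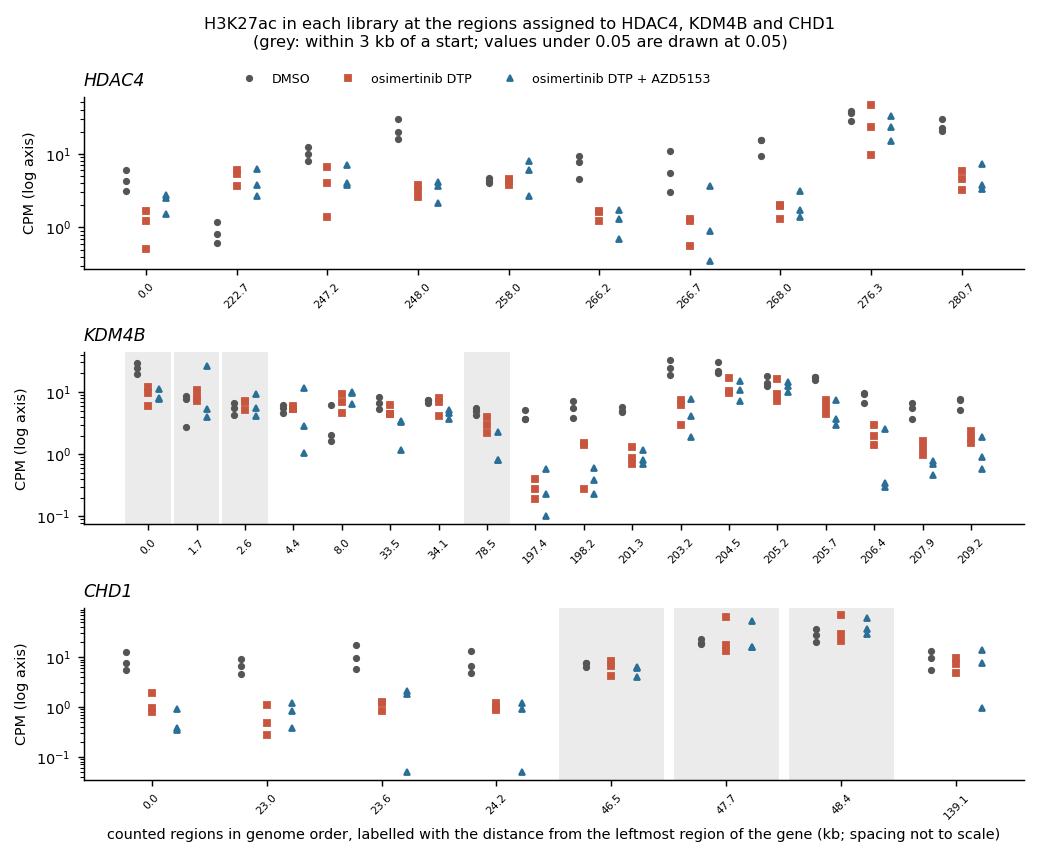
H3K27ac in each library (CPM on a log axis) at every region assigned to HDAC4, KDM4B and CHD1, in genome order, with the distance from the leftmost region in kb. Grey columns are within 3 kb of a start, and the 10 rightmost KDM4B regions lie inside PTPRS, where the fitted log2 fold change against DMSO is below 0 at all 10 in both treated groups.

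The count of 43 regions depended on single libraries, as did that over all regions, of which 10.7% passed. It was 17 without DMSO replicate 1 (5.04% of all regions tested), 0 without DMSO replicate 2 (0.701%) and 5 without DMSO replicate 3 (1.94%). It was 15, 8 and 6 without osimertinib DTP replicates 1, 2 and 3 (5.20%, 3.00% and 2.75% of all). Without osimertinib DTP + AZD5153 replicate 3, the library that stood apart, it was 102 (26.8% of all). That library is in neither group compared here, but it enters the shared filter, scaling and estimate of spread. Without it 161758 regions were tested instead of 157919. Which of these steps moved the count was not tested.

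The second comparison set osimertinib DTP + AZD5153 against DMSO. It shares its DMSO libraries with the first, so the values are given side by side and no overlap between the lists is counted. At promoters 3 of 88 gene sums were higher (6.89% of all genes) and 6 lower (7.04%). DNMT3B, SMARCC2, HDAC1, HDAC3, KMT5A and DNMT1 fell, and SETD7, CHD6 and ARID1B rose.

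HDAC1 and HDAC3 are catalytic subunits of corepressor complexes. HDAC1 promoters had 31.5, 43.3 and 39.5 CPM per region in DMSO, 21.8, 22.8 and 27.8 in osimertinib DTP, then 21.5, 25.6 and 13.7 under osimertinib DTP + AZD5153. The HDAC3 promoter had 30.4, 32.5 and 27.3, then 25.6, 22.7 and 23.7, then 17.1, 15.6 and 16.5. Against DMSO the log2 fold change after AZD5153 was -0.91 ± 0.25 (adjusted p = 0.0393, edgeR) for HDAC1 and -0.87 ± 0.24 (adjusted p = 0.0384) for HDAC3. Both promoters were lower than every DMSO library in both treated groups, while the osimertinib DTP difference alone did not pass (adjusted p = 0.161 and 0.497).

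Promoters of both DNA methyltransferases that passed were lower. DNMT3B had 7.64, 6.75 and 11.8 CPM per region in the osimertinib DTP + AZD5153 libraries (-1.75 ± 0.28 relative to DMSO, adjusted p = 0.00524, edgeR). DNMT1 had 85.3, 84.6 and 83.1 in DMSO, 69.0, 70.2 and 52.7 in osimertinib DTP, then 60.2, 48.6 and 61.0 under osimertinib DTP + AZD5153 (-0.57 ± 0.16, adjusted p = 0.0458). KMT5A, the H4K20 monomethyltransferase, had 21.0, 17.1 and 19.9, then 11, 14.4 and 10.2, then 10.2, 10.6 and 11.9 (-0.83 ± 0.21, adjusted p = 0.0277). All of its treated libraries lay below all of its DMSO libraries.

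SWI/SNF subunits went both ways at promoters. SMARCC2 had 39.1, 44.0 and 53.7 CPM per region in DMSO, 30.1, 29.4 and 45.5 in osimertinib DTP, then 17.9, 24.6 and 30.1 under osimertinib DTP + AZD5153 (-0.91 ± 0.25 relative to DMSO, adjusted p = 0.0408, edgeR). ARID1B, with 7 promoter regions, had 45.8, 45.4 and 45.3, then 56.0, 52.5 and 52.7, then 61.7, 63.7 and 67.2 (0.50 ± 0.13, adjusted p = 0.0362). SETD7 had 57.9, 48.1 and 71.4 in osimertinib DTP + AZD5153 (1.37 ± 0.23, adjusted p = 0.00647). CHD6 had 16.9, 18.7 and 24.2 (1.15 ± 0.30, adjusted p = 0.0351). With the replicate number as a block, HDAC1, HDAC3, KMT5A and DNMT1 no longer passed (adjusted p = 0.0678, 0.0597, 0.0552 and 0.069, edgeR). Promoters met the pairing rule here against DMSO but not between the treated groups. The 9 calls became 3 without DMSO replicate 1 and 2 without DMSO replicate 2 or 3. Without osimertinib DTP + AZD5153 replicates 1, 2 and 3 they became 2, 4 and 20. Counts over all 12295 gene promoters moved in the same directions, from 1712 called with every library. Without DMSO replicates 1, 2 and 3 that number was 1117, 624 and 572. Without osimertinib DTP + AZD5153 replicates 1, 2 and 3 it was 1005, 1185 and 3078. With a loess offset 4 promoters were higher and 4 lower, while over all 12295 gene promoters 873 were higher and 823 lower. DNMT3B and SETD7 passed in all 9 fits that left out 1 library.

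Distal sums of 11 of 43 genes were higher (23.7% of all genes) and of 7 lower (19.2%). The median log2 fold change was 0.48, against 0.21 over all genes. The 10 greatest differences were falls in DNMT3B, HDAC8, CHD1 and TET3 and rises in TET2, CHD4, KDM3A, CREBBP, SMARCC2 and KDM6B. TET2 had 29.3, 31.9 and 13.2 CPM in the osimertinib DTP + AZD5153 libraries (log2 fold change 3.48 ± 0.51 relative to DMSO, adjusted p = 0.000701, edgeR), KDM3A 21.4, 19.4 and 10.4 (2.43 ± 0.38, adjusted p = 0.000792) and CREBBP 24.0, 48.3 and 23.5 (2.16 ± 0.39, adjusted p = 0.00166). Every one of these libraries exceeded the highest DMSO library of its gene.

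DNMT3B reached 1.83, 2.35 and 0 CPM at its distal region in osimertinib DTP + AZD5153 (-3.60 ± 0.69, adjusted p = 0.00224, edgeR). CHD1 had 6.76, 8.16 and 1.82 (-2.02 ± 0.49, adjusted p = 0.00802) and HDAC8 15.3, 14.7 and 2.53 (-2.12 ± 0.52, adjusted p = 0.00832). In the 3 genes all libraries lay below DMSO, the lowest being replicate 3. SMARCC2 rose at its distal regions (2.03 ± 0.40, adjusted p = 0.0025) and DNMT1 did as well (0.97 ± 0.33, adjusted p = 0.0337), the opposite of their promoter sums. The DNMT1 call ended without replicate 3 of osimertinib DTP + AZD5153 (0.56, adjusted p = 0.0684). The difference between promoter and distal change was not tested.

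Of the 18 distal calls 4 ended without the library that stood apart, those of KDM6B, DNMT1, KMT5B and HDAC7. The CHD4 difference was smaller without it and still passed. CHD4, the ATPase of the NuRD complex, had 19.2, 9.37 and 7.38 CPM per region in DMSO and 45.9, 32.7 and 166 in osimertinib DTP + AZD5153 (2.76 ± 0.68, adjusted p = 0.00849, edgeR, and 1.68 without replicate 3, adjusted p = 0.0134). KDM6B had 80.3, 65.6 and 61.0 and then 122, 91.5 and 542 (1.86 ± 0.63, adjusted p = 0.0349), and 0.59 (adjusted p = 0.19) without replicate 3. Distal KDM6B also missed the threshold with the replicate block (adjusted p = 0.109). The remaining calls, named after their values were seen, were CHD6, KMT5B, HDAC7, DNMT1 and KMT2A higher (0.73 to 1.41, with KMT5B at 0.78, adjusted p = 0.0731, and HDAC7 at 0.66, adjusted p = 0.0567, without replicate 3) and CHD5, KDM6A and KDM4B lower (-1.77 to -0.97), with the 3 distal regions of KMT2A lying inside ATP5MG. By library size without trimmed means 7 distal sums were higher and 8 lower, while over all 8143 genes 1476 were higher and 1832 lower. The 18 calls became 10 without DMSO replicate 2 and 9 without DMSO replicate 3. Over all genes 42.9% of distal sums were called with every library, and 28.3% and 29.3% in these fits.

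Of single regions, 56 differed between osimertinib DTP + AZD5153 and DMSO, in 26 genes. In 54 of them the groups did not overlap, again among regions picked by the test on the same values. At promoters 5 of 231 rose (5.32% of all) and 1 fell (3.18%). At 1 to 3 kb 3 of 41 rose (10.6%) and 2 fell (12.7%), and of 166 distal regions 19 rose (14.3%) and 26 fell (16.1%). By library size alone 20 regions were higher and 33 lower, while over all 157919 regions tested 9564 were higher and 15152 lower. Demethylase genes had 11 of 36 distal regions lower and 3 higher. Of the 56 called regions 9 lay inside a gene other than the assigned one. The greatest fall was at the KDM6A intron (chrX:45006846-45007347), with 0.301, 0 and 0.193 CPM (-4.60 ± 0.87, adjusted p = 0.00287, edgeR). CHD5, a remodeler, had 9.25, 19.9 and 14.8 CPM in DMSO, 2.77, 4.31 and 2.92 in osimertinib DTP, then 1.5, 1.05 and 1.93 under osimertinib DTP + AZD5153 at chr1:6158040-6158541 in intron 3 of a CHD5 transcript (-3.30 ± 0.59, adjusted p = 0.00227). CHD2, the gene with the most counted regions (19), lost acetylation at -2383 bases from a start (chr15:92981575-92982076), with 12.2, 22 and 15.6, then 5.93, 1.67 and 3.22, then 2.2, 2.09 and 0.773 (-3.25 ± 0.64, adjusted p = 0.00371). Both treated groups lay below DMSO, without overlap, in each of these regions. The 10 greatest region differences include 7 more. KDM6A in exon 5 (chrX:45010796-45011297) went from 4.63, 8.16 and 5.03 CPM in DMSO to 0.802, 0.465 and 0 (-3.63 ± 0.77, adjusted p = 0.00516, edgeR). KDM4B fell at chr19:5165620-5166121 (-3.89 ± 0.79) and at chr19:5166352-5166853 (-3.71 ± 0.75), both inside PTPRS. CHD1 fell in exon 22 (chr5:98880772-98881273, -3.91 ± 0.69) and in exon 3 (chr5:98904979-98905480, -3.40 ± 0.76), and the DNMT3B distal region fell by 3.59 ± 0.78 on the log2 scale. Adjusted p-values of these 5 ran from 0.00205 to 0.00656, and no osimertinib DTP + AZD5153 library reached a DMSO value. The TET2 region (chr4:105122506-105123007) rose in the same comparison from 1.09, 0.929 and 0.402 to 11.2, 14.2 and 2.51 CPM (3.51 ± 0.70, adjusted p = 0.00388). The 56 calls became 37, 21 and 24 without DMSO replicates 1, 2 and 3, 37 without osimertinib DTP + AZD5153 replicate 1 and 107 without its replicate 3. Of all regions tested 18.1% were called with every library. In these fits the share was 10.6%, 5.16%, 6.14%, 10.2% and 35.7%, in the same order.

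The third comparison set osimertinib DTP + AZD5153 against osimertinib DTP. The labels do not say whether osimertinib was kept beside AZD5153. Adding AZD5153 and ending osimertinib therefore cannot be told apart here. No region (0 of 438), promoter sum (0 of 88) or distal sum (0 of 43) passed the test with edgeR, and 0.00% of all annotated regions, 0.00% of all gene promoters and 0.00% of all distal sums did. At an unadjusted p under 0.05 there were 16 regions (4.44% of all regions tested), 7 promoter sums (8.57% of all) and 2 distal sums (898 of all 8143). By DESeq2 0 regions, 0 distal sums and 1 promoter, that of HDAC11, passed. Over all features DESeq2 called 16 regions higher and 59 lower of 146588, and 90 distal sums higher and 114 lower of 8117. It called 47 gene promoters higher and 76 lower of 12295. Without replicate 3 of osimertinib DTP + AZD5153, the library that stood apart, edgeR gave more unadjusted p-values under 0.05. These were 20.1% of all regions tested, 25.5% of all gene promoters and 1935 of all 8143 distal sums. The reason for this rise was not tested, and the 0 calls do not show that AZD5153 changed nothing.

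HDAC11, a deacetylase that also removes fatty acyl groups, is named here after its values were seen. Its promoters had 26.4, 11.8 and 9.40 CPM per region in DMSO, 13.2, 11.2 and 11.7 in osimertinib DTP, then 44.8, 28.9 and 34.9 under osimertinib DTP + AZD5153. The AZD5153 libraries were all above both other groups. Against osimertinib DTP the log2 fold change was 1.59 ± 0.38 (adjusted p = 0.353 with edgeR and 0.0135 with DESeq2). Of its 13 regions 7 had an unadjusted p under 0.05 (edgeR), against 4.44% of all regions tested. Both promoter regions were among the 7, and their counts make up the promoter sum. These neighbouring regions of a gene picked by its values are thus no separate support. Its distal sum of 105 CPM per region in replicate 3 stood far above 32.5 and 22.3 in the other 2 libraries.

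Without replicate 3 of osimertinib DTP + AZD5153, 4 promoter sums passed (2.09% of all genes did), while 0 regions (0.122% of all regions tested) and 0 distal sums (1.30% of all) did. HDAC8 was then higher (1.25 ± 0.27, adjusted p = 0.0456, edgeR). HDAC10 (-1.45 ± 0.31, adjusted p = 0.0481), SETD3 (-1.30 ± 0.25, adjusted p = 0.0389) and SMARCD3, a SWI/SNF subunit (-1.5 ± 0.28, adjusted p = 0.0363), were lower. These 4 were named after their values were seen, and the AZD5153 group then held 2 libraries. HDAC11 did not pass in that fit.

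Complex partners of these enzymes, together with family members outside the name patterns, were counted in the same way. This partner list held 113 genes, of which 100 had a promoter region and 39 a distal one. Between osimertinib DTP and DMSO 2 partner promoters were higher (2.80% of all genes tested) and 2 lower (3.35%), and after AZD5153 4 were higher (6.89% of all) and 2 lower (7.04%). Distal sums of 11 partners were higher (18.6% of all) and 3 lower (15.9%) in osimertinib DTP, then 10 higher (23.7%) and 3 lower (19.2%) under osimertinib DTP + AZD5153. RBBP5, a subunit of the COMPASS methyltransferase complexes, had the greatest rise, with a mean distal level of 2.02 CPM per region in DMSO and 28.0 in osimertinib DTP (log2 fold change 3.79 ± 0.41, adjusted p = 0.000423, edgeR). NCOA6, of the same complexes, went from 3.73 to 20.3 (2.45 ± 0.46, adjusted p = 0.00275). MTA3, a NuRD subunit, had the greatest fall, from 29.8 to 4.14 CPM per region (-2.84 ± 0.55, adjusted p = 0.00348). At promoters the Polycomb genes CBX6 (1.73, adjusted p = 0.016) and PCGF5 (1.59, adjusted p = 0.0397) rose and PHF19 (-1.11, adjusted p = 0.0179) and SUV39H1 (-0.79, adjusted p = 0.0321), an H3K9 methyltransferase, fell. These partners were named after their values were seen.

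Peaks had also been called in each library from the same reads. Of 231 promoter and 166 distal regions 0 were without a peak in every library. A peak was found in all 9 libraries at 162 of 231 promoter regions (70.1%) and at 43 of 166 distal regions (25.9%). The share of promoter regions with a peak was 91.05% ± 3.07 in DMSO, 95.7% ± 2.25 in osimertinib DTP, then 91.3% ± 2.25 under osimertinib DTP + AZD5153 (SD, n = 3 each). At distal regions it was 79.7% ± 1.26, 74.9% ± 3.09 and 66.9% ± 15.2, and 49.4% of them had one in the replicate of osimertinib DTP + AZD5153 that stood apart. The pooled input held a median of 12 counts at the promoter regions and 13 at the distal ones, against a median of 10 over all counted regions.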

How the data were processed

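H3K27ac chromatin immunoprecipitation was sequenced as 75-nt single-end reads in 9 H1975 libraries and 1 pooled input. Per the submitters' processing notes, BWA 0.7.17, MACS2 2.2.6, featureCounts 2.0.0 and ChIPseeker 1.29.1 were used on hg38, with roles not stated there. The authors deposited raw read counts per region of 502 bases, an annotated version with the gene of the nearest transcription start, and peak files per library, in which the deposited values are a fold enrichment ratio and −log10 of the p and q values. Only the peak positions and q values were used here.

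Counts of all 169637 regions were fitted with edgeR 4.0.16 (R 4.3.3; quasi-likelihood, TMM, filterByExpr with a minimum count of 10, all 9 libraries, a mean per group), and p-values were adjusted by Benjamini-Hochberg over all 157919 regions tested, with a threshold of 0.05. Counts summed per gene over promoter regions (12295 genes) and over distal regions (8143 genes) were fitted in the same way. CPM values are on the scale of each fit and do not compare across scales. DESeq2 1.42.0 and the other alternatives are given in the closing section. P-values measure the spread between these libraries, which the labels call biological replicates.

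The genes and lists were chosen with earlier results of these data known. Genes named were the 10 called with the largest absolute log2 fold change in each comparison and readout, the 10 such regions without overlap between groups (at most 2 per gene), the gene with the highest promoter level of each class and the one with the most regions, and 10 genes fixed by name. Same-numbered libraries were taken as paired where every correlation of their deviations from group means exceeded 0.1. This held for regions (0.33, 0.35 and 0.32) and promoters (0.37, 0.10 and 0.29) between DMSO and osimertinib DTP, and for promoters (0.12, 0.42 and 0.17) and distal sums (0.18, 0.41 and 0.19) between DMSO and osimertinib DTP + AZD5153. Between the treated groups the rule was not met, with same-numbered promoters at 0.55, -0.55 and -0.61. There osimertinib DTP replicate 2 and osimertinib DTP + AZD5153 replicate 3 reached 0.69. Pairing by number therefore did not hold across all 3 groups. The pairing comes from the data, not the labels.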

Additional observations from a re-analysis of the deposited data

How the results depend on the processing

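The counts of called genes and regions depended more on which libraries entered than on the scaling. Between osimertinib DTP and DMSO, 43 regions became 101 with the libraries of those groups alone and 5 at an adjusted p under 0.01. The 2 promoters became 1 by library size without TMM, 0 with the replicate block, 9 with those libraries alone, 8 with DESeq2, 0 with the promoter region of highest mean count and 0 at 0.01. The 10 distal sums became 19 with those libraries alone, 16 with DESeq2 and 5 at 0.01. Between osimertinib DTP + AZD5153 and DMSO, 56 regions became 27 at 0.01, 9 promoters became 4 with those libraries alone, 20 with DESeq2, 4 with the region of highest mean count and 2 at 0.01, and 18 distal sums became 8 at 0.01. Between the treated groups DESeq2 called 1 promoter, and over all 12295 gene promoters 47 higher and 76 lower. Counts over all features moved too. Between osimertinib DTP and DMSO, DESeq2 called 751 of all gene promoters higher and 775 lower, against 344 and 412 in the main fit. The libraries of those groups alone gave 19930 regions higher and 18728 lower of 146480, against 8814 and 8107 of 157919. The cause of these shifts was not tested, apart from the stricter threshold. The counts at 0.01 stand here without a share over all features, so they are not read as a trait of these genes.

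Leaving out 1 library gave 0 to 102 regions, 0 to 10 promoters and 5 to 19 distal sums for osimertinib DTP against DMSO, 21 to 107, 2 to 20 and 9 to 18 for osimertinib DTP + AZD5153 against DMSO, and 0 to 0, 0 to 4 and 0 to 0 between the treated groups. The replicate block left 37 and 54 regions and 8 and 15 distal sums in the comparisons with DMSO. It left 7 promoters for osimertinib DTP + AZD5153 against DMSO. With it HDAC8 (adjusted p = 0.0645, edgeR) and KDM4B (0.0572) no longer passed for distal sums between osimertinib DTP and DMSO. Over all 157919 regions the block fit called 8433 higher and 8008 lower in osimertinib DTP, then 12445 and 15202 in osimertinib DTP + AZD5153. Of all 8143 distal sums it called 1506 higher and 1260 lower, then 1747 and 1585. Of all 12295 gene promoters 696 were higher and 767 lower in osimertinib DTP + AZD5153.

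Among the genes fixed by name, differences that had not passed changed sign. KDM5B between osimertinib DTP and DMSO was -0.23 by its promoter region of highest mean count (0.21 by the sum). Between the treated groups KDM6B was 0.0844 within 3 kb, and by the region of highest mean count EZH2 was 0.0156 and CREBBP -0.0169. Leaving out 1 library gave -0.62 to 0.14 for KDM5B between osimertinib DTP + AZD5153 and DMSO, and between the treated groups -0.0729 to 0.31 for KDM6A, -0.54 to 0.11 for EZH2 and -0.17 to 0.38 for CREBBP. The share of promoter regions with a peak was 80.1%, 85.7% and 81.8% in DMSO, osimertinib DTP and osimertinib DTP + AZD5153 for a −log10 q of at least 10, and 86.4% and 91.8% in the first 2 when a larger overlap of peak and region was required. Regions with few counts limit the precision of single-region folds.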
